A study of Mus musculus with 12 samples.

Results

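The cell cycle set comprised 42 genes chosen by symbol, by their known roles, from the 14541 genes of the deposited table. They fall into 22 genes of the G1 to S transition and DNA replication, 16 genes of G2 and mitosis, and 4 genes of cyclin-dependent kinase (CDK) inhibitors. All 42 were listed. Of these, 39 passed the filter of at least 1 FPKM (a level per gene length and library size) in at least 4 libraries: 19 replication, 16 mitosis and 4 inhibitor genes. The replication genes Tyms, Cdc6 and Ccne2 did not pass, so they have levels but no test.

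Microglia, the resident macrophages of the brain, came from the forebrains of wild-type mouse pups at postnatal day 7 to 9 and were pulled out with beads against CD11b. They were plated at 40000 to 80000 cells per well and collected 6 h after one of 3 treatments, with 4 libraries per group. The Hevin group received 500 nM of recombinant Hevin, a protein that astrocytes secrete; the LPS group received 50 ng/mL lipopolysaccharide, a bacterial cell wall component; and the Media group received growth medium alone. CD11b beads also bind other myeloid cells, and the wells held bulk RNA from cells a short time after isolation. Titles number the libraries of each group 1 to 4. Column headers give the same libraries, in that order, the numbers 4 to 7. Neither names the animals or cultures behind them. The p-values below therefore reflect the spread among libraries, which may be technical.

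As background, a cell enters the cycle when D-type cyclins activate CDK4 and CDK6, and cyclin E activates CDK2, which releases E2F factors from the retinoblastoma protein. E2F factors then switch on genes that license origins and copy DNA, such as those of the MCM helicase, and a later wave of genes for spindle, chromosome and checkpoint proteins follows in G2 and mitosis. CDK inhibitors hold these kinases back. Microglia divide widely in the young postnatal brain.

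E2F elements in promoters of replication genes, and CHR elements (cell cycle homology region) in promoters of mitosis genes, are known to time these waves. Promoter windows from RefSeq (build GRCm38.p6, 250 bases before to 50 bases after a start) matched 34 of the 42 genes. An E2F motif, searched on both strands as TTTCCCGC, TTTCGCGC, TTTGCCGC or TTTGGCGC, stood in 7 of 17 replication genes (41.2%), in 1 of 13 mitosis genes (7.69%) and in 0 of 4 inhibitor genes. It stood in 2.6% of all 27025 genes with a window and in 2.26% of all 32851 windows. The CHR motif, searched on both strands as TTTGAA or TTTAAA, stood in 12 of 13 mitosis genes (92.3%), 4 of 17 replication genes (23.5%) and 2 of 4 inhibitor genes, against 30.6% of all genes and 27.6% of all windows. No E2F motif contains a CHR motif, and a match describes letters only. Shown are the 250 bases before the start of Mcm6 (chr1:128359706-128359955, minus strand), Cdk1 (chr10:69352913-69353162, minus strand) and Mki67 (chr7:135716380-135716629, minus strand), 5′ to 3′ along each gene, with matches in capitals. These 3 were chosen because Mcm6 rose with Hevin, whereas Cdk1 and Mki67 moved in opposite directions with LPS.
Mcm6: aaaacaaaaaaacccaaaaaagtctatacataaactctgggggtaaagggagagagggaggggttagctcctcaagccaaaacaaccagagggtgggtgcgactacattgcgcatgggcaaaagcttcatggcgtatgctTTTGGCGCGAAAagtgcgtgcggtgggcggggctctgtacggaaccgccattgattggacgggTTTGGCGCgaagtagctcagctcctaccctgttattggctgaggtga
Cdk1: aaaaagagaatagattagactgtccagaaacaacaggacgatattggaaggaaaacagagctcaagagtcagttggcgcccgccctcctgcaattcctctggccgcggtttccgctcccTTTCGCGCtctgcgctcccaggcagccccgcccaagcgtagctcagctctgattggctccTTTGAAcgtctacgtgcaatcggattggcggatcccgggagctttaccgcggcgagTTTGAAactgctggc
Mki67: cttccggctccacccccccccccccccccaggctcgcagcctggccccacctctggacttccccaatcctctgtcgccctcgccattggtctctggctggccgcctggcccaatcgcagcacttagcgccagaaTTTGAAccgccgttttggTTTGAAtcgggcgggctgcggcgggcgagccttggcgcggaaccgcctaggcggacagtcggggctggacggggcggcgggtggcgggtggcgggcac
Mcm6 had 3 E2F matches, of which 2 on opposite strands overlap, and no CHR match. Cdk1 had 1 E2F match and 2 CHR matches. Mki67 had 2 CHR matches and no E2F match, so these windows of Cdk1 and Mki67 both hold the CHR letters.

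The 12 microglial markers summed to 1206 to 1469 FPKM with Media, to 1880 to 2480 with Hevin and to 1104 to 1447 with LPS, and all 12 were detected in every library. With Hevin 6 of the 12 were called higher than with Media and 0 lower, beside 4.27% and 3.1% of all genes. The part of this in the levels below was not tested. Markers of border macrophages were also high (Mrc1, Lyve1, Cd163, Pf4, Ms4a7 and Cbr2). These 6 summed to 791 to 925 FPKM with Media, 576 to 786 with Hevin and 674 to 836 with LPS, and most of each sum was Pf4. The part of such macrophages in the levels below was not tested. The 8 astrocyte markers summed to 50.0 to 86.2 FPKM with Media, 21 to 44.4 with Hevin and 112.0 to 233.6 with LPS, of which Gja1 made up most, while Gfap stood at 0.192 to 1.97. Tmem119, a defining marker of microglia in tissue, was low at 0.531 to 3.23 FPKM. Libraries of number 2 stood apart in all 3 groups: the 5 listed neutrophil markers (S100a8, S100a9, Retnlg, Camp and Ngp; Ly6g was not listed) summed to 1889 to 2038 FPKM there and to 38.2 to 101.7 elsewhere. The 4 monocyte markers summed to 87.6 to 114.5 FPKM in number 2 and to 1.8 to 8.0 elsewhere. Of the dividing cells that a forebrain can hold, the 6 listed markers of oligodendrocyte precursors summed to 3.05 to 12.1 FPKM with Media, 13.3 to 30.9 with Hevin and 2.7 to 11.6 with LPS, and of 3 tested 1 was called higher with Hevin and 1 lower with LPS. Most of the Hevin sum was Cspg4, at 1.6 to 4.13 in Media, 12.1 to 28.6 in Hevin, 0.555 to 1.3 in LPS, while Pdgfra stood at 0.308 to 2.31 and Olig2 at 0.0357 to 1.76 over all libraries. The 5 listed neural progenitor markers summed to 214.0 to 250.1 FPKM with Media, 162.9 to 216.9 with Hevin and 123.6 to 199.9 with LPS, of which most was Nes, with Egfr at 2.33 to 11.1, Sox2 at 0.185 to 2.76 and Pax6 at 0.0 to 0.44. The part of such cells in the results was not tested. Depth in listed genes was 18343996 to 27361665 recovered reads per library. FPKM summed to 324698 ± 5325 (SD, n = 4) in Media, 313555 ± 12232 in Hevin and 422173 ± 6273 in LPS.

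Among replication genes, levels ranged from Cdk6 at 64.5 ± 20.2 FPKM (mean ± SD, n = 4, as for all means below) and Pcna at 59.7 ± 5.68 in Media down to Tyms at 0.402 ± 0.0699. Pcna encodes the sliding clamp of DNA polymerases, and Tyms encodes thymidylate synthase. Mitosis genes were lower: in Media, Mki67 was highest at 9.91 ± 2.68 FPKM, and Cenpf, which encodes a kinetochore protein, was lowest at 0.821 ± 0.297. The inhibitor gene Cdkn1a, which encodes p21, exceeded every other member, at 489 ± 31 FPKM in Media. Low members rest on few reads, with as few as 5 in 1 library for Plk1 and 12 for Ccne1, against at least 1864 for Mki67. Cenpf and Ccne1 passed the filter with the minimum of 4 libraries, and 3 of the 4 for Cenpf were Hevin libraries.

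**Figure D1:**
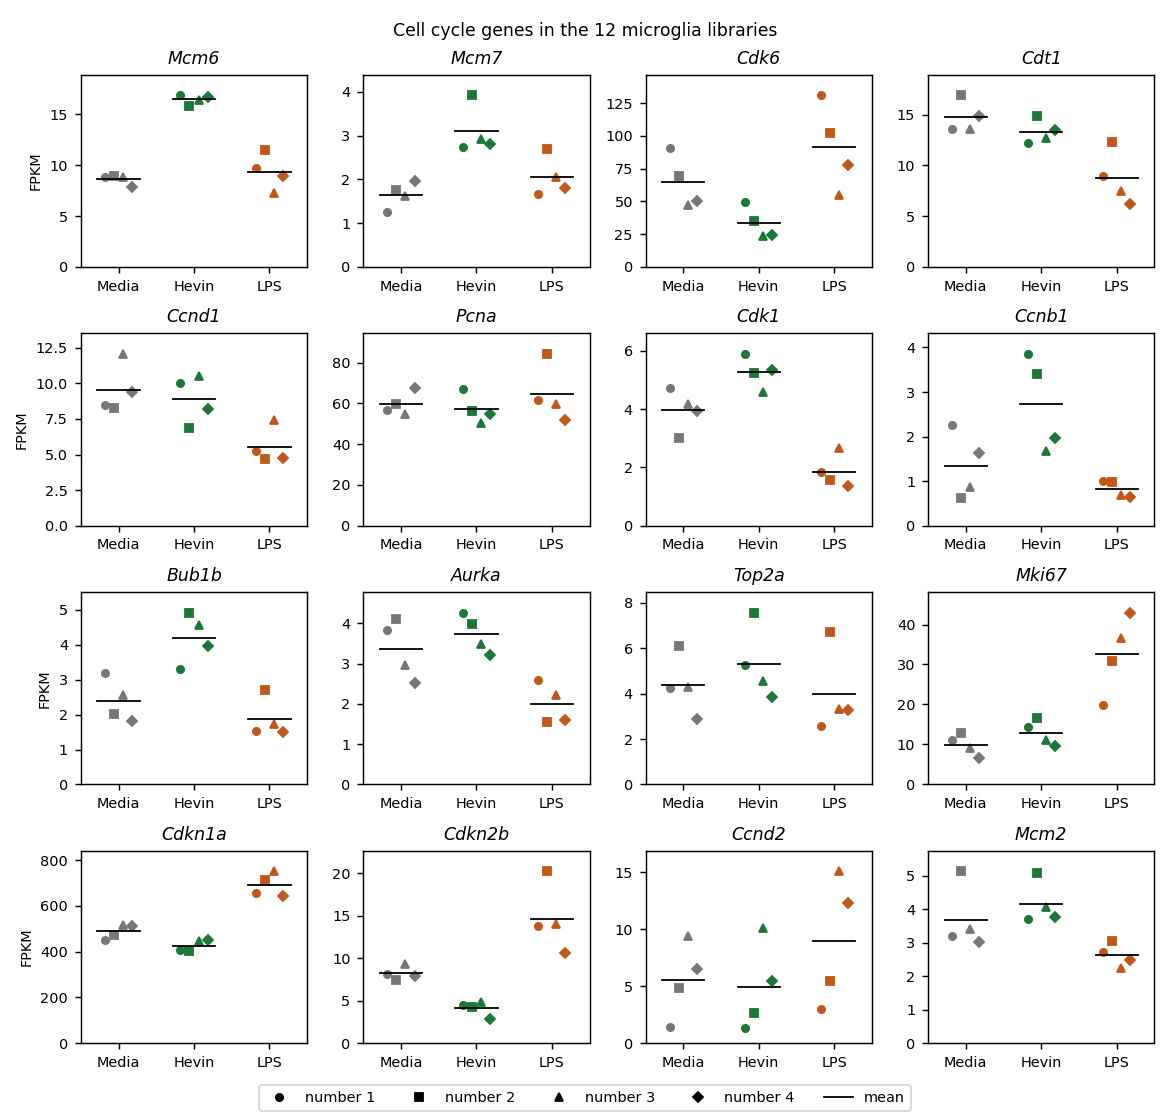
FPKM of 16 cell cycle genes in each of the 12 libraries, 1 panel per gene, with points for the 4 libraries of Media, Hevin and LPS and a bar for the group mean. Mcm6 lies at 15.8 to 16.9 FPKM in the 4 Hevin libraries against 7.84 to 8.91 in Media, and Mki67 lies at 19.8 to 43.0 in LPS against 6.55 to 12.8 in Media.

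Hevin against Media asked what the astrocyte protein does to the microglial transcriptome. Of 19 replication genes tested, 2 rose and 0 fell, Mcm6 and Mcm7, which encode subunits of the replicative MCM helicase. The median log2 fold change of the 19 was 0.04, beside 0.00 over all 11242 genes tested. Across all genes 4.27% rose and 3.1% fell at an adjusted p under 0.05 (limma on log2(FPKM + 1), Benjamini-Hochberg adjustment over all genes). Log2 fold changes are given ± SE on this scale, on which the added 1 shrinks the changes of genes at low level.

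Mcm6 stood at 8.82, 8.91, 8.78 and 7.84 FPKM in Media, 16.9, 15.8, 16.4 and 16.7 in Hevin, and 9.7, 11.5, 7.26 and 8.88 in LPS, for libraries 1 to 4. Every Hevin library was above every Media and every LPS library, and the 4 Hevin values lay close together. The log2 fold change was 0.86 ± 0.11 (limma adjusted p = 5.79e-04), and the call held in all 25 alternatives, with adjusted p of at most 0.00315. Mcm7 was lower, at 1.25, 1.77, 1.61 and 1.97 FPKM in Media, 2.75, 3.92, 2.92 and 2.81 in Hevin, and 1.67, 2.7, 2.05 and 1.79 in LPS. Its Hevin libraries also lay above all Media libraries, with library 2 the highest of the group, and its log2 fold change was 0.63 ± 0.14 (limma adjusted p = 0.0159). Exons of Mcm7 (chr5:138164583-138172422, minus strand, GENCODE M21 on GRCm38) overlap Mir25 and Mir93 on the same strand and Cops6 and Ap4m1 on the opposite strand, and whether counting used strand is not given in the sources used here. Mcm6 (chr1:128331590-128359664, minus strand) overlaps no other exon.

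The other MCM subunit genes did not pass the test, and their log2 fold changes were 0.15 ± 0.14 for Mcm2, 0.26 ± 0.11 for Mcm3, 0.29 ± 0.17 for Mcm4 and 0.14 ± 0.14 for Mcm5. Mcm2 stood at 3.19, 5.13, 3.41 and 3.04 FPKM in Media, 3.7, 5.07, 4.06 and 3.76 in Hevin, and 2.73, 3.04, 2.23 and 2.48 in LPS, so Media and Hevin libraries overlapped. Same-numbered libraries of the 3 treatments share a number in the column headers, and they deviated together across groups. Libraries of numbers 3 and 4 also deviated together. A fit with the shared number as a block is given beside the first. It called 3 replication genes higher and 2 lower, beside 10.8% and 10.6% of all genes. Mcm3 was added to those higher (block adjusted p = 0.0277), and 2 genes of G1 were called lower. These were Ccnd3, which encodes cyclin D3 (log2 fold change -0.34 ± 0.25 without the block, block adjusted p = 0.0499), and Cdk6 (block adjusted p = 1.40e-05).

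Cdk6, the kinase partner of D-type cyclins, stood at 91, 69.4, 47.5 and 50.2 FPKM in Media, 49.2, 35.2, 23.7 and 24.6 in Hevin, and 131, 102, 54.6 and 77.4 in LPS. In each number, Hevin was lowest and LPS highest, and number 1 was the highest library of each group. Without the block the log2 fold change for Hevin against Media was -0.95 ± 0.30 (limma adjusted p = 0.0826), which missed the threshold. Pcna stood at 56.7, 59.7, 54.7 and 67.7 FPKM in Media, 67, 56.1, 50.5 and 54.9 in Hevin, and 61.7, 84.2, 59.8 and 52 in LPS, and its Media, Hevin and LPS libraries overlapped (log2 fold change for Hevin -0.06 ± 0.14, limma adjusted p = 0.869). In pairs of the same number, 7 of 19 replication genes were higher with Hevin in 4 of 4 numbers (Mcm3, Mcm4, Mcm5, Mcm6, Mcm7, Rrm1 and Ccne1) and 3 were lower in 4 of 4 (Cdt1, Ccnd3 and Cdk6). Over all genes these shares were 23.4% and 23.6%.

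Of 16 mitosis genes, 1 rose with Hevin and 0 fell, beside 4.27% and 3.1% of all genes, with a median log2 fold change of 0.28. The estimate was above 0 for 16 of 16 genes, against 5625 of all 11242 genes tested. The 16 genes were measured in the same libraries and varied together between them, so they are not 16 separate observations. In same-numbered pairs 13 of 16 were higher in 4 of 4 numbers and 0 lower, beside 23.4% and 23.6% of all genes. The 3 that were not higher in every number were Ccnb2, Aurka and Plk1. With the replicate block 4 mitosis genes were called higher and 0 lower, beside 10.8% and 10.6% of all genes. These were Bub1b, Ccnb1, which encodes cyclin B1, Cdc20, which encodes an activator of the anaphase-promoting complex, and Cenpf. Cenpf passed the filter with the minimum of 4 libraries, 3 of them Hevin. Its Hevin level thus brought it into these counts, and its call is no separate evidence of a rise. Ccnb1 reached 1 FPKM in 7 libraries, which were the 4 Hevin libraries, Media 1, Media 4 and LPS 1. Birc5 did so in 5, which were Hevin 1, 2 and 3, Media 2 and LPS 2. Neither would have passed the filter without its Hevin libraries, so the call of Ccnb1 has the same limit. Cenpf, Ccnb1 and Birc5 are all among the 13 genes higher in every number. Leaving out the 3 libraries of number 2, the count was 0 higher and 0 lower and the median was 0.24, with 15 of 16 estimates above 0. In bulk RNA, a change in the share of cells of a type or phase and a change in RNA per cell cannot be told apart.

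**Figure D2:**
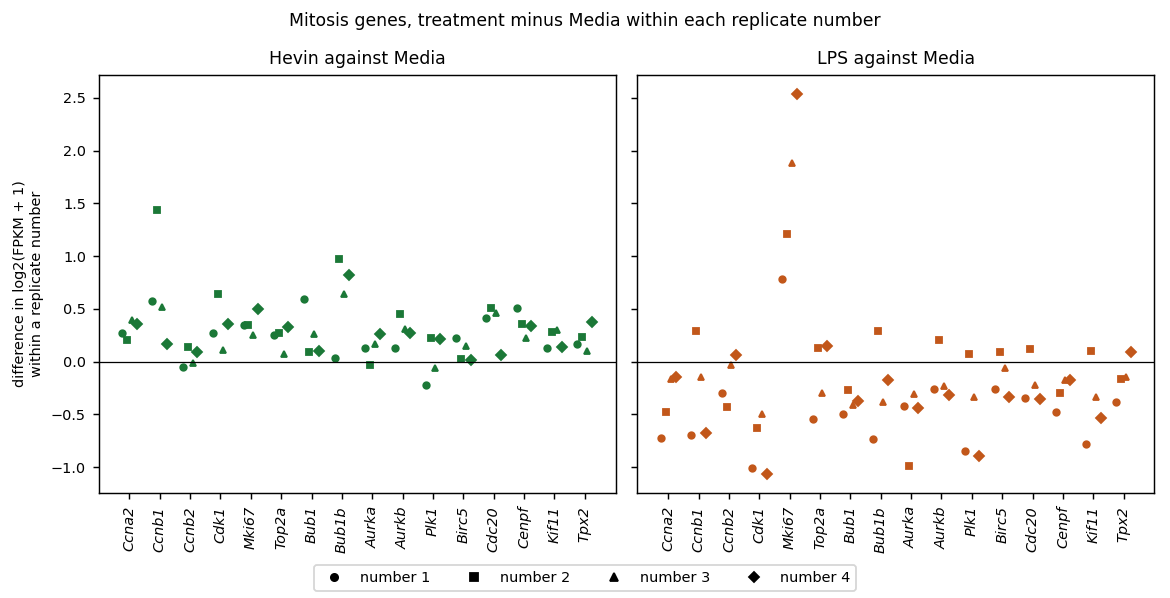
Log2 differences in FPKM + 1 between same-numbered libraries for the 16 mitosis genes, Hevin minus Media and LPS minus Media, with 1 point per replicate number. With Hevin 13 of 16 genes have 4 of 4 points above 0, whereas with LPS 5 have 4 of 4 below 0 and Mki67 alone has 4 of 4 above 0. Over all genes, 23.4% have 4 of 4 above 0 with Hevin. With LPS 28.1% of all genes have 4 of 4 below 0 and 25.8% above 0.

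Bub1b encodes a kinase-like protein of the spindle checkpoint and stood at 3.2, 2.03, 2.57 and 1.81 FPKM in Media, 3.32, 4.92, 4.56 and 3.97 in Hevin, and 1.53, 2.71, 1.74 and 1.5 in LPS. Its Hevin libraries lay above all Media libraries, by a small margin between Hevin 1 and Media 1. The log2 fold change was 0.62 ± 0.17 (limma adjusted p = 0.0438). This call was lost in 12 of 24 alternatives, with adjusted p of up to 0.132, among them leaving out Media 2, 3 or 4, Hevin 2, 3 or 4, or LPS 3 or 4.

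Ccnb1 stood at 2.27, 0.624, 0.873 and 1.64 FPKM in Media, 3.86, 3.4, 1.67 and 1.96 in Hevin, and 1.01, 0.984, 0.688 and 0.653 in LPS. Hevin was higher within each number, though Media 1 exceeded Hevin 3 and 4, and the log2 fold change was 0.67 ± 0.24 (limma adjusted p = 0.127, block adjusted p = 0.0247). Cdc20 stood at 1.42, 1.45, 0.886 and 1.23 FPKM in Media, 2.22, 2.49, 1.59 and 1.33 in Hevin, and 0.902, 1.65, 0.619 and 0.746 in LPS, with a log2 fold change of 0.36 ± 0.18 (block adjusted p = 0.0395). Cenpf stood at 0.863, 1.16, 0.826 and 0.436 FPKM in Media, 1.65, 1.76, 1.13 and 0.819 in Hevin, and 0.342, 0.756, 0.621 and 0.272 in LPS, with a log2 fold change of 0.36 ± 0.18 (block adjusted p = 0.0372). For these 3 genes the test without the block did not pass, and their Media and Hevin libraries overlapped.

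Common markers of cycling cells did not pass in either fit for Hevin. Mki67, which encodes a protein that coats mitotic chromosomes, stood at 11.1, 12.8, 9.2 and 6.55 FPKM in Media and 14.3, 16.6, 11.1 and 9.68 in Hevin, a change of 0.36 ± 0.25 on the log2 scale (limma adjusted p = 0.473). Top2a encodes the topoisomerase that untangles sister chromosomes and stood at 4.24, 6.08, 4.28 and 2.87 FPKM in Media, 5.24, 7.56, 4.57 and 3.85 in Hevin, and 2.58, 6.73, 3.3 and 3.28 in LPS (log2 fold change for Hevin 0.23 ± 0.25, limma adjusted p = 0.699). Cdk1 encodes the kinase that drives entry into mitosis, and its log2 fold change was 0.35 ± 0.15 (limma adjusted p = 0.216). All 3 were nevertheless higher with Hevin in 4 of 4 numbers.

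Among the 4 inhibitor genes, 0 rose and 1 fell with Hevin, beside 4.27% and 3.1% of all genes. Cdkn2b encodes p15, an inhibitor of CDK4 and CDK6, and stood at 8.11, 7.45, 9.32 and 7.93 FPKM in Media, 4.55, 4.28, 4.8 and 2.87 in Hevin, and 13.8, 20.2, 14 and 10.6 in LPS. The 3 groups did not overlap: Hevin was lowest and LPS highest. The log2 fold change for Hevin was -0.86 ± 0.18 (limma adjusted p = 0.0105), and the call held in all 25 alternatives. Cdkn1a was lower in 4 of 4 numbers without passing the test (log2 fold change -0.20 ± 0.08, limma adjusted p = 0.195). The block gave an adjusted p of 0.0504, and limma-voom on recovered reads with the block called it lower (adjusted p = 0.0322). Cdkn1b, which encodes p27, and Cdkn2c, which encodes p18, had log2 fold changes of 0.18 ± 0.19 and 0.03 ± 0.15.

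LPS against Media compared the inflammatory stimulus with the same 4 Media libraries, so this comparison and the previous one share their controls. Of 19 replication genes, 0 rose and 3 fell, beside 13.2% of all genes higher and 12.6% lower. The 3 were Cdt1, Ccnd1 and Cdk2, and the median of the 19 was 0.004. With the block the counts were 2 higher and 7 lower, beside 21.5% and 22.2% of all genes. The 2 higher were Cdk6 and Ccnd2, and the 4 added to the lower genes were Mcm2, Rrm1, E2f1 and Cdk4. FPKM sums were higher in LPS, and setting all sums equal moved the median of all genes from -0.02 to -0.34 and the calls over all genes from 1484 higher and 1413 lower to 670 and 5591; the replication genes then had a median of -0.28 and 9 were called lower.

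Cdt1 encodes the factor that loads the helicase onto origins and stood at 13.6, 16.9, 13.6 and 14.8 FPKM in Media, 12.2, 14.9, 12.7 and 13.5 in Hevin, and 8.93, 12.3, 7.48 and 6.21 in LPS. All LPS libraries were below all Media libraries, with a log2 fold change of -0.73 ± 0.16 (limma adjusted p = 0.00576). Ccnd1, which encodes cyclin D1, stood at 8.49, 8.29, 12.1 and 9.39 FPKM in Media, 10.0, 6.89, 10.5 and 8.2 in Hevin, and 5.22, 4.65, 7.43 and 4.75 in LPS. LPS again lay below Media without overlap (log2 fold change -0.70 ± 0.17, limma adjusted p = 0.00852), whereas Hevin overlapped Media. Both calls held in all 25 alternatives. E2f1, an activator of replication genes, and Cdk4 were called lower with the block only, with log2 fold changes of -0.32 ± 0.15 (block adjusted p = 0.0165) and -0.26 ± 0.10 (block adjusted p = 0.00908). Gins2, of the helicase's GINS partner complex, passed in neither fit (0.00 ± 0.16 with LPS and 0.33 ± 0.16 with Hevin). Exons of Ccnd1 (chr7:144929931-144939925, minus strand) overlap those of LTO1 on the opposite strand. Of the 4097 exon bases of Gins2, 2758 overlap Gse1 on the opposite strand. Ccnd2, Ccnd3, Ccne2, Cdk2, Cdk4, Cdk6, Ccna2, Plk1, Cdc20 and Cdkn1a also share exon bases with genes on the opposite strand. Whether such genes share reads was not tested.

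Cdk2 stood at 17.1, 15.8, 15.4 and 17.8 FPKM in Media, 16.8, 17, 14.7 and 16 in Hevin, and 15, 13, 12.9 and 11.5 in LPS, and the log2 fold change for LPS was -0.32 ± 0.09 (limma adjusted p = 0.0236). The LPS libraries lay below the Media libraries by a small margin, and the call was lost in 6 of 25 alternatives, among them leaving out Media 1, Media 4, LPS 3 or LPS 4, with adjusted p of up to 0.0722. Rrm1, which encodes the large subunit of ribonucleotide reductase, stood at 3.54, 5.15, 4.59 and 3.91 FPKM in Media, 3.73, 5.61, 5.12 and 4.9 in Hevin, and 3.22, 4.03, 2.94 and 2.45 in LPS. Number 2 was its highest library in each group. Rrm1 was lower with LPS in 4 of 4 numbers, with a log2 fold change of -0.35 ± 0.15 (limma adjusted p = 0.0989, block adjusted p = 0.0178). In same-numbered pairs 2 replication genes were higher with LPS in 4 of 4 numbers (Ccnd2 and Cdk6) and 7 lower (Mcm2, Rrm1, Cdt1, E2f1, Ccnd1, Cdk2 and Cdk4), beside 25.8% and 28.1% of all genes.

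The D-type cyclin genes differed with LPS: Ccnd1 fell, Ccnd2 was called higher with the block, and Ccnd3 passed in neither fit. Ccnd2, which encodes cyclin D2, stood at 1.41, 4.81, 9.42 and 6.55 FPKM in Media, 1.38, 2.65, 10.1 and 5.46 in Hevin, and 3.03, 5.43, 15.1 and 12.3 in LPS, and was higher with LPS in each number while varying strongly between numbers. Its log2 fold change was 0.58 ± 0.58 (limma adjusted p = 0.508, block adjusted p = 0.00382). The 6 endothelial and mural markers summed to 23.7, 59.2, 105.5 and 75.2 FPKM in Media 1 to 4, the same order as Ccnd2. Their sums also followed the order of Ccnd2 in Hevin and in LPS. The marker sums of oligodendrocyte precursors, and of neurons and neuroblasts, followed it in Media and in LPS but not in Hevin. The match in Media was thus shared by all of these lists, and the match in Hevin was seen only for the endothelial and mural list among them. The part of any of these cells in the level of Ccnd2 was not tested. Cdk6 had a log2 fold change of 0.47 ± 0.30 (limma adjusted p = 0.281, block adjusted p = 6.23e-04). Ccne1, which encodes cyclin E1, passed in neither fit (log2 fold change 0.51 ± 0.21, block adjusted p = 0.0576).

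Of 16 mitosis genes, 1 rose with LPS and 2 fell, beside 13.2% and 12.6% of all genes, and the median log2 fold change was -0.26. The estimate was below 0 for 15 of 16 genes, against 5964 of 11242 of all genes tested, with Mki67 the exception. As with Hevin, the 16 genes are not 16 separate observations. With the block 1 was called higher and 6 lower, beside 21.5% and 22.2% of all genes, adding Ccna2, Bub1, Plk1 and Kif11 to Cdk1 and Aurka. With equal FPKM sums 9 were called lower and 1 higher, at a median of -0.48 beside -0.34 for all genes. Within numbers, 5 of 16 were lower in 4 of 4 (Ccna2, Cdk1, Bub1, Aurka and Cenpf). This share of 31.25% was close to the 28.1% of all genes. Without number 2 the counts were 1 higher and 3 lower. Top2a, Ccnb2 (cyclin B2), Aurkb (a kinase of the chromosomal passenger complex), Birc5 (survivin, of the same complex) and Tpx2 (a spindle assembly factor) passed in neither fit for either treatment against Media. Their log2 fold changes were 0.04 to 0.29 with Hevin and -0.18 to -0.14 with LPS.

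Mki67 stood at 11.1, 12.8, 9.2 and 6.55 FPKM in Media, 14.3, 16.6, 11.1 and 9.68 in Hevin, and 19.8, 30.9, 36.6 and 43 in LPS. Every LPS library lay above every Media and Hevin library. Its log2 fold change for LPS was 1.6 ± 0.25 (limma adjusted p = 6.21e-04), and the call held in all 25 alternatives, with estimates from 1.25 to 1.82. In Media number 4 was lowest, and in LPS number 4 was highest. Mki67 (chr7:135689784-135716361, minus strand) overlaps no other exon in the annotation.

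Cdk1 stood at 4.73, 3.0, 4.16 and 3.94 FPKM in Media, 5.89, 5.23, 4.58 and 5.34 in Hevin, and 1.84, 1.58, 2.66 and 1.35 in LPS. All LPS libraries were below all Media libraries (log2 fold change -0.80 ± 0.15, limma adjusted p = 0.00229), in all 24 alternatives that tested it. Mki67 and Cdk1 moved in opposite directions, and both hold CHR letters in the sequences shown. So do 12 of the 13 mitosis genes with a window, and the part of these letters in either change was not tested. Aurka, which encodes a kinase of the spindle poles, stood at 3.83, 4.1, 2.98 and 2.51 FPKM in Media, 4.27, 3.99, 3.48 and 3.21 in Hevin, and 2.59, 1.56, 2.21 and 1.59 in LPS. LPS 1 slightly exceeded Media 4, and the log2 fold change was -0.54 ± 0.15 (limma adjusted p = 0.0211). That call was lost in 7 of 24 alternatives, among them leaving out number 2, Media 1, Media 2, LPS 2 or LPS 4, with adjusted p of up to 0.131. Top2a passed in neither fit (log2 fold change -0.14 ± 0.25, limma adjusted p = 0.736).

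The 4 mitosis genes called only with the block for LPS lay at low levels. Ccna2, which encodes cyclin A2, stood at 2.18, 3.41, 1.87 and 1.54 FPKM in Media, 2.83, 4.07, 2.77 and 2.26 in Hevin, and 0.92, 2.16, 1.56 and 1.29 in LPS (block adjusted p = 0.0169). Bub1, which encodes a kinase of the spindle checkpoint, stood at 1.11, 1.75, 1.05 and 1.14 FPKM in Media, 2.2, 1.94, 1.46 and 1.3 in Hevin, and 0.495, 1.28, 0.547 and 0.656 in LPS (block adjusted p = 0.0234). In both genes LPS was lower within each number, while LPS 2 exceeded some Media libraries of other numbers. Plk1, which encodes a mitotic kinase, stood at 1.44, 1.29, 1.08 and 1.11 FPKM in Media, 1.1, 1.68, 1.0 and 1.45 in Hevin, and 0.354, 1.4, 0.649 and 0.137 in LPS (block adjusted p = 0.0297). Kif11, which encodes the motor that separates spindle poles, stood at 1.88, 2.18, 1.53 and 1.34 FPKM in Media, 2.15, 2.86, 2.1 and 1.58 in Hevin, and 0.678, 2.41, 1.0 and 0.615 in LPS (block adjusted p = 0.0351). For Plk1 and Kif11, LPS 2 was above Media 2, and the other 3 LPS libraries were below all Media libraries.

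Of the 4 inhibitor genes, 2 rose with LPS and 0 fell, beside 13.2% and 12.6% of all genes. Cdkn1a stood at 452, 475, 517 and 512 FPKM in Media, 407, 401, 445 and 453 in Hevin, and 657, 714, 751 and 643 in LPS, and LPS lay above both other groups without overlap (log2 fold change 0.50 ± 0.08, limma adjusted p = 0.00103). This direction depends on the scaling: the log2 fold change was 0.12 with equal FPKM sums, with no call, and -0.19 under quantile normalization. Cdkn2b rose by a log2 fold change of 0.73 ± 0.18 (limma adjusted p = 0.0093), a call lost with equal FPKM sums and without number 2, with adjusted p of up to 0.0821. Cdkn1b and Cdkn2c did not pass (log2 fold changes 0.07 ± 0.19 and -0.21 ± 0.15).

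**Figure D3:**
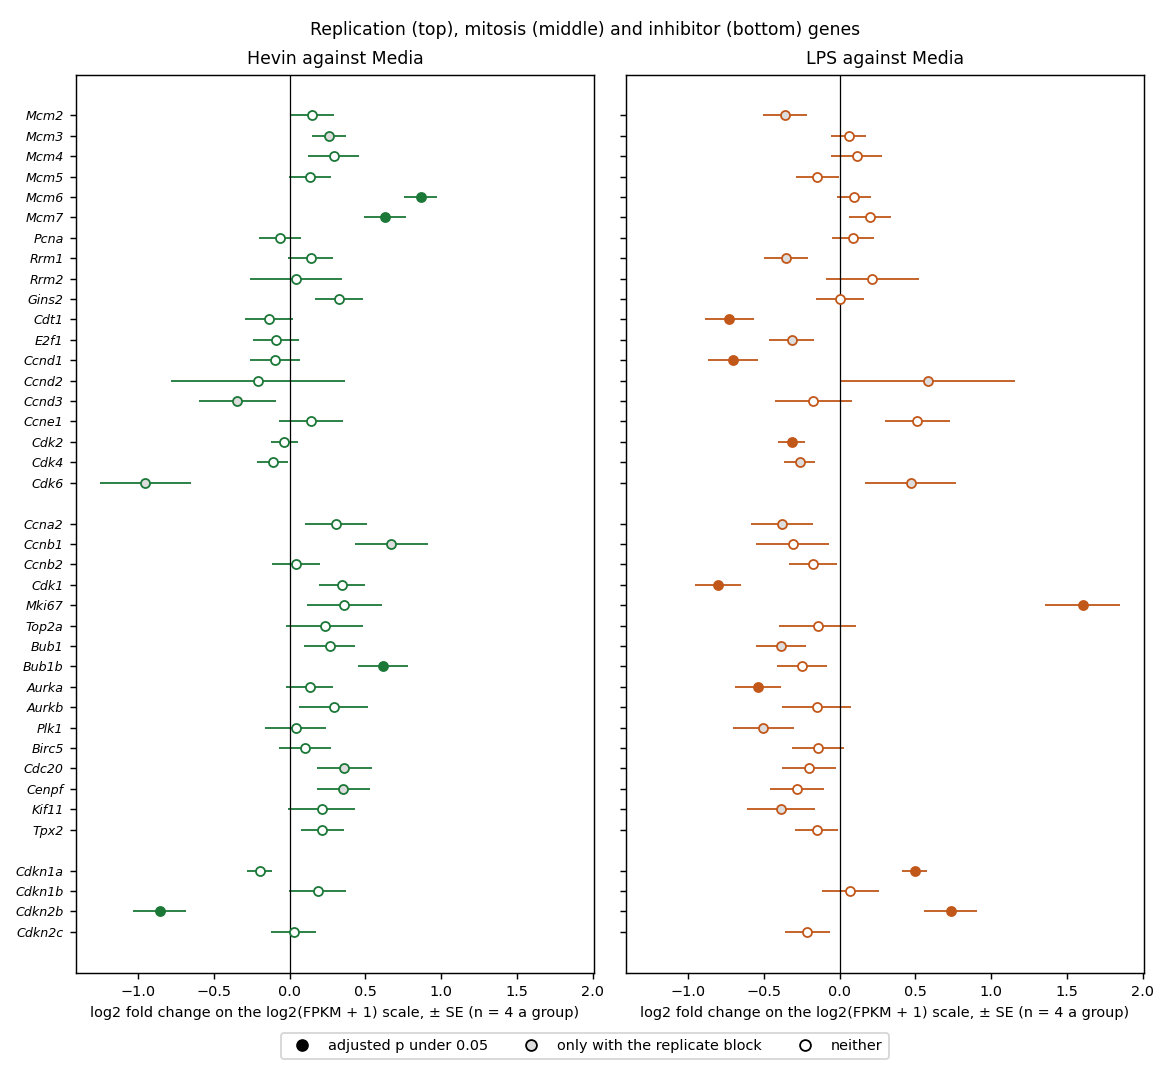
Log2 fold change ± SE on the log2(FPKM + 1) scale for the 39 tested genes, Hevin against Media on the left and LPS against Media on the right, filled where the limma adjusted p was under 0.05 and grey where only the fit with the replicate block called them. With Hevin 16 of 16 mitosis estimates lie above 0, and with LPS 15 of 16 lie below 0, with Mki67 at 1.6.

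Hevin against LPS set the treatments directly against each other. Of 19 replication genes, 7 were higher with Hevin and 1 lower, beside 22% and 19.7% of all genes. Higher were Mcm2, Mcm6, Mcm7, Rrm1, Cdt1, Ccnd1 and Cdk2, and lower was Cdk6. Of 16 mitosis genes, 10 were higher and 1 lower. The median log2 fold change was 0.23 for replication and 0.58 for mitosis genes, beside 0.02 for all genes. With the block, 9 replication genes were higher and 2 lower, and 13 mitosis genes higher and 1 lower, beside 29.9% and 28% of all genes. The genes added were Mcm3 and Mcm5 (higher), Ccnd2 (lower), and Top2a, Aurkb and Tpx2 (higher). Without number 2 the counts were 7 and 1 for replication and 10 and 1 for mitosis genes.

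The largest difference among mitosis genes called higher was Cdk1, at 1.15 ± 0.15 (limma adjusted p = 9.32e-05), followed by Ccnb1 at 0.98 ± 0.24 (limma adjusted p = 0.00664) and Bub1b at 0.87 ± 0.17 (limma adjusted p = 0.00153). Hevin libraries of these 3 genes lay above all LPS libraries. Ccna2, Bub1, Aurka, Plk1, Cdc20, Cenpf and Kif11 were also higher, with log2 fold changes of 0.54 to 0.69. Of these, Cenpf had passed the filter mainly through its Hevin libraries, with LPS at 0.272 to 0.756 FPKM. Ccnb1, with LPS at 0.653 to 1.01 FPKM, would also not have passed the filter without its Hevin libraries. Mki67 was the 1 mitosis gene lower with Hevin than with LPS, at -1.24 ± 0.25 (limma adjusted p = 0.00186). The calls of Plk1 and Kif11 were each lost in 14 of 24 alternatives, among them leaving out any 1 Media library, with adjusted p of up to 0.135 for Plk1 and 0.13 for Kif11.

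For replication genes, Mcm6 differed most among those higher with Hevin than with LPS, at 0.77 ± 0.11 (limma adjusted p = 1.97e-04), and Cdk6 was lower, at -1.42 ± 0.30 (limma adjusted p = 0.00274). The differences were 0.61 ± 0.17 for Ccnd1 (limma adjusted p = 0.0113), 0.59 ± 0.16 for Cdt1 and 0.50 ± 0.14 for Mcm2. Calls lost in some alternatives were Cdk2 (7 of 25), Mcm7 (5 of 24), Rrm1 (3 of 24) and Mcm2 (1 of 24). Both inhibitor genes that LPS raised were lower with Hevin than with LPS: Cdkn1a at -0.69 ± 0.08 (limma adjusted p = 4.29e-05) and Cdkn2b at -1.59 ± 0.18 (limma adjusted p = 2.40e-05). For Cdkn1a the direction turned to 0.04 under quantile normalization.

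Levels also varied with the replicate number. The number 2 library was the highest of its group for 12 of 16 mitosis genes in Media, in Hevin and in LPS, and for 11, 12 and 13 of 19 replication genes, whereas it was highest for 26.3%, 25.9% and 27.3% of all genes. These are the libraries with the neutrophil marker sums of 1889 to 2038 FPKM, and the part of such cells in the cell cycle levels was not tested. The pattern is present in the Media libraries without any treatment. Rrm2, which encodes the small subunit of ribonucleotide reductase, is an example: it stood at 0.503, 2.11, 1.74 and 0.942 FPKM in Media, 0.76, 2.34, 1.3 and 1.07 in Hevin, and 0.828, 3.44, 1.58 and 1.17 in LPS, and number 2 was highest in each group. Its log2 fold changes were 0.04 ± 0.30 for Hevin and 0.22 ± 0.30 for LPS, neither of which passed the test.

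**Figure D4:**
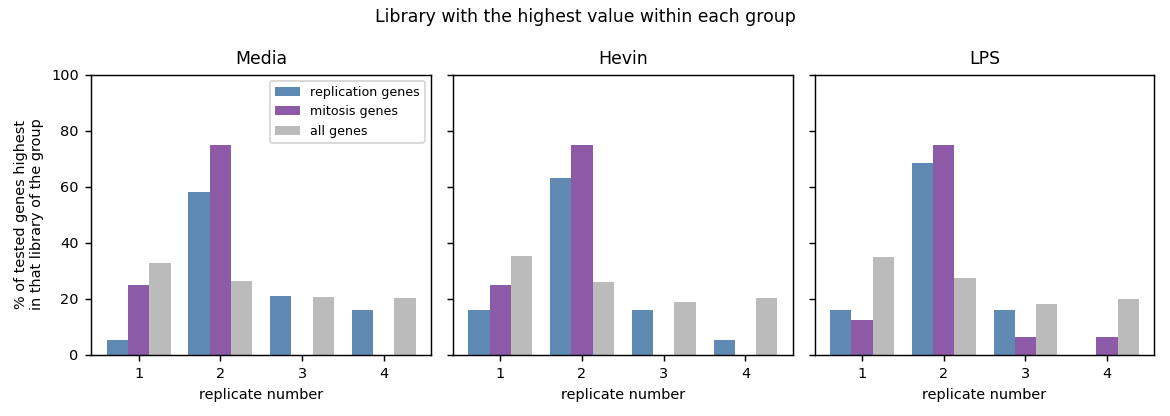
Share (%) of tested genes whose highest value within a group lay in the library of each replicate number, for replication genes, mitosis genes and all genes, in Media, Hevin and LPS. Number 2 holds the highest value for 75% of mitosis genes in each group, beside 25.9% to 27.3% of all genes.

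Beyond the 42 genes, 170 other cell cycle genes were followed in 5 lists, of which 143 were tested. For Hevin against Media 6 of 143 rose and 3 fell, beside 4.27% and 3.1% of all genes, and with the block 17 and 14, beside 10.8% and 10.6%. For LPS 16 rose and 16 fell, beside 13.2% and 12.6%, and with the block 26 and 30, beside 21.5% and 22.2%. Hevin exceeded LPS for 40 and was lower for 19, beside 22% and 19.7%, and with the block for 61 and 30, beside 29.9% and 28%. The 46 tested genes of the other mitosis list had 1 higher and 0 lower with Hevin (6 and 2 with the block), and 2 higher and 5 lower with LPS (5 and 15 with the block). Set against each other, Hevin exceeded LPS for 16 and was lower for 1 of these 46, and with the block for 30 and 5. The median log2 fold changes of this list were 0.18 for Hevin against Media and -0.20 for LPS against Media. In the 47 tested genes of the other replication list, 1 rose and 1 fell with Hevin (3 and 6 with the block), and 3 rose and 7 fell with LPS (6 and 10 with the block). The 20 genes of E2F, RB and MuvB regulators had 1 higher and 0 lower with Hevin (4 and 1 with the block), and 3 and 3 with LPS (5 and 4 with the block). The 10 tested checkpoint genes had 2 higher and 0 lower with Hevin (2 and 1 with the block), and 1 and 1 with LPS in both fits. The 20 tested genes of other inhibitors, p53 targets and quiescence had 1 higher and 2 lower with Hevin (2 and 4 with the block).

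The largest change among these genes with Hevin was in Chek2, which encodes a DNA damage checkpoint kinase, from 3.5 ± 0.391 to 15 ± 1.55 FPKM (limma adjusted p = 2.30e-05, n = 4 per group). Lmnb1, which encodes lamin B1 of the nuclear envelope, rose from 10.5 ± 1.8 to 32.9 ± 6.05 FPKM (limma adjusted p = 2.16e-04). Ccng2, which encodes an atypical cyclin linked to cell cycle arrest, rose from 14.8 ± 2.9 to 30.5 ± 7.95 FPKM, and Gins1, a partner of the MCM helicase, rose from 1.54 ± 0.515 to 3.42 ± 0.826 FPKM. Plk2, a stress-responsive kinase gene, fell from 284 ± 55.8 to 132 ± 18.2 FPKM, and with LPS it rose from 284 ± 55.8 to 749 ± 177 FPKM. The 5 named genes come from 4 of the 5 lists.

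With LPS, 3 of the 5 named genes belonged to the list of other inhibitors, p53 targets and quiescence. Of its 20 tested genes, 7 rose and 0 fell with LPS (9 and 0 with the block), beside 13.2% and 12.6% of all genes (21.5% and 22.2% with the block). Its median log2 fold change was 0.21, beside -0.02 over all genes. Counts for this and the other lists were not made under other scalings. With equal FPKM sums, calls over all genes with LPS were 670 higher and 5591 lower. Gadd45b, a stress-response gene, rose from 88 ± 16.4 to 387 ± 99.9 FPKM (limma adjusted p = 1.13e-05, n = 4 per group), and Gadd45a rose from 12 ± 4.84 to 27.5 ± 9.86 FPKM. E2f5, which encodes a repressor E2F, rose from 8.38 ± 0.256 to 33 ± 7.58 FPKM (limma adjusted p = 1.35e-05). Rpa3, which encodes a subunit of the factor that covers single-stranded DNA, fell from 2.21 ± 0.572 to 0.675 ± 0.561 FPKM (limma adjusted p = 0.00841).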

How the data were processed

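Gene expression was measured in 12 libraries of mouse microglia, 4 per group, built from 100 ng of RNA each with a kit that marks strand and selects poly(A), and read as pairs of 100 bp, per the labels' protocols. The authors deposited FPKM values for 14541 genes by symbol. The submitters' processing notes name the genome build mm10 and, in no stated order, edgeR 3.30.3, R 4.0.0, Bowtie2 2.3.5.1, Trimmomatic 0.39, FastQC 0.11.7, and featureCounts with Subread 1.6.3. The use of strand is not given in the sources used here. Whole reads were recovered from the FPKM steps in 100% of rows, within 0.1 of a whole number, and put the depth of listed genes at 18343996 to 27361665 per library. The 11242 genes that reached 1 FPKM in 4 or more libraries were fitted together in limma 3.58.1 (R 4.3.3). The fit used log2(FPKM + 1), a trend of variance on level, all 12 libraries and no block. Benjamini-Hochberg adjustment ran over all genes fitted, with a threshold of 0.05. The fit and the recovery of reads were tested on simulated data.

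The members were picked by symbol, and they and the lists were chosen with earlier results of these data known. Named with values in every library are members called in any comparison and Mki67, Top2a, Cdk1, Ccnd1, Pcna, Mcm2 and Cdkn1a. Of the other cell cycle lists, the 5 called genes with the largest change for each treatment are named. Other members named with values, such as Ccnd2 and Rrm2, were chosen after their values were seen.

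Titles give each group the numbers 1 to 4, and column headers number the same libraries 4 to 7 in that order. Deviations from group means correlated within every one of the 12 same-numbered pairs (0.230 to 0.784, mean 0.63). In the 36 differently numbered pairs the correlations were -0.592 to 0.528 (mean -0.201). LPS 4 correlated at 0.528 with Media 3 and 0.520 with Hevin 3, against 0.230 with Media 4 and 0.392 with Hevin 4. These correlations thus do not separate numbers 3 and 4 well. The fit with the shared number as a block is given beside the first where it changes calls among the 42 genes or counts for the treatments against Media. Alternatives were pseudocounts of 0.1 and 5, other filters, other scalings, only both groups, no trend, the block, limma-voom on recovered reads and leaving out libraries. Figures were drawn with matplotlib 3.10.9.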

Additional observations from a re-analysis of the deposited data

Results flagged for a closer look

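Over 126 groups of 4 libraries (42 genes in 3 groups), 9 held a library far from the other 3, where the gap to the nearest library, as a share of the range, exceeded Dixon's critical value for 4 libraries. Chance gives such a gap in about 1 in 20 groups. Of the 9, 7 were number 2 libraries, in which neutrophil markers summed to 1889 to 2038 FPKM. In Media 2, Ccne2 stood at 1.23 FPKM against 0.365 to 0.506 in the other Media libraries, Bub1 at 1.75 against 1.05 to 1.14, and Birc5, which encodes survivin, at 1.47 against 0.918 to 0.99. In Hevin 2, Mcm7 stood at 3.92 FPKM against 2.75 to 2.92, Ccnb2 at 6.98 against 4.2 to 4.39, and Tpx2 at 3.78 against 2.7 to 2.88. In LPS 2, Cdkn2c stood at 1.37 FPKM against 0.886 to 0.931. The other two were Mcm6 in Media 4, at 7.84 FPKM against 8.78 to 8.91, and Gins2 in LPS 1, at 2.21 against 1.19 to 1.34. Without number 2, Mcm7 was still called higher with Hevin.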

How the results depend on the processing

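For Hevin against Media, replication genes higher were 1 with a filter of 5 FPKM, and those lower were 1 under upper quartile scaling and quantile normalization, 2 with the replicate block and 1 with limma-voom and the block. Mitosis genes higher were 0 with a pseudocount of 0.1, with no filter, with the 5 FPKM filter and under quantile normalization, 4 with the block and 3 with limma-voom and the block. For LPS against Media, replication genes higher were 2 with the block and with limma-voom and the block, and those lower were 7 under upper quartile scaling, 9 with equal FPKM sums, and 7 with the block and with limma-voom and the block. Mitosis genes lower were 0 with the 5 FPKM filter, 1 with only both groups and under quantile normalization, 9 with equal sums, 6 with the block and 7 with limma-voom and the block. For Hevin against LPS, replication genes higher were 4 with the 5 FPKM filter and 13 with equal sums, and those lower 2 with the block and with limma-voom and the block. Mitosis genes higher were 0 with the 5 FPKM filter, 5 under quantile normalization and 15 with equal sums. The 5 FPKM filter tests fewer genes; for the others the cause was not tested. Among the 42 genes, the block changed no other call than those given here and in the results above.

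Leaving out libraries gave, for Hevin against Media, 0 to 1 replication genes lower (1 without Hevin 1) and 0 to 1 mitosis genes higher (0 without Media 2, 3 or 4, Hevin 2, 3 or 4, LPS 3 or 4, or number 2). For LPS against Media it gave 0 to 1 replication genes higher (1 without Media 2 or number 2), 2 to 5 lower (5 without LPS 2) and 1 to 4 mitosis genes lower (4 without LPS 2, 1 without Media 1, Media 2 or LPS 4). For Hevin against LPS it gave 4 to 8 replication genes higher (4 without Hevin 2 or LPS 4) and 6 to 14 mitosis genes higher (6 without Hevin 2).

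Among the genes followed singly, log2 fold changes turned sign for Pcna, Cdkn1a, Ccnd1 and Top2a. Other members also turned: with Hevin, mitosis estimates above 0 went from 16 of 16 to 14 without Hevin 2, and with LPS, replication estimates above 0 went from 10 of 19 to 5 without LPS 2 and to 4 with equal sums. For LPS against Media, Pcna was -0.027 under upper quartile scaling, -0.18 under quantile normalization and -0.28 with equal sums, and -0.045 to 0.18 leaving out libraries. Cdkn1a was -0.19 under quantile normalization, and Top2a was -0.38 (without LPS 2) to 0.00035 (without Media 2) leaving out libraries. For Hevin against LPS, quantile normalization gave 0.16 for Pcna and 0.039 for Cdkn1a, and equal sums 0.27 for Pcna. Ccnd1 in Hevin against Media was -0.17 to 0.014 leaving out libraries. Over all genes, calls higher and lower with LPS were 1136 and 2466 under upper quartile scaling and 1118 and 1664 under quantile normalization, and Hevin against LPS gave 5978 and 849 with equal sums and 3437 and 1643 under upper quartile scaling, against 2470 and 2215 as deposited. Hevin against Media gave 682 and 310 with equal sums, against 480 and 349.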
